A study of Mus musculus with 48 samples.

Results

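This account follows 67 mouse genes named for their induction by interferon. They were read in liver spheroids engrafted on the iris and in the kinds of tissue and cell these came from or grew on. The members were the genes whose symbol starts with Ifi, Ifit, Ifitm, Oas, Oasl, Gbp, Irf, Isg, Irgm, Iigp or Mx followed by a digit, among the 20702 genes of the iris-corrected expression table. Within that table names alone chose them, so the set also holds genes not known as interferon targets, such as the Irf2-binding proteins and Isg20l2. The table itself was limited to genes over a mean level and holds explants but no irises. The set may therefore lean toward genes high in explants.

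Bulk RNA sequencing had been done on 16 samples, each as 3 technical libraries. They were 5 explants (numbered 1, 2, 4, 5 and 6), 3 naïve irises, 3 endogenous livers, 3 preparations of hepatocyte-enriched cells and 2 samples of spheroids kept in vitro. An explant was a spheroid engrafted in the anterior chamber of the eye (ACE), taken with its surrounding iris 2 months post-transplant. All groups carried the label WT Albino with strain C57BL/6N, whereas the methods name an albino B6 line carrying a tyrosinase mutation, and ages were given as adult only. Hepatocytes came from collagenase-perfused donor livers and were enriched, not pure, and spheroids were formed in plating medium with serum and dexamethasone, a glucocorticoid, part of which was replaced in steps with serum-free medium. Nothing in the labels says which samples shared an animal, so p-values measure the spread between these samples.

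Interferons are secreted proteins that signal through cell-surface receptors. Type I interferon (the Ifna and Ifnb1 products) activates the kinases Jak1 and Tyk2 and then a transcription factor complex holding Stat2 and Irf9, which binds the interferon-stimulated response element, or ISRE. Type II interferon (Ifng) activates Jak1 and Jak2 and acts through the gamma-activated sequence, or GAS. The induced genes include GTPases that attack vacuoles holding pathogens, proteins that bind viral RNA and the transcription factors that widen the response. Many respond to both kinds of interferon, so the level of a single member does not tell the ligand.

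The sequences below show the response elements that members of different families share, each written from 20 bases before the first match to 20 after the last or to the base before the start. The motif searched as the ISRE was GAAANNGAAA on either strand, and that searched as the GAS was TTCNNNGAA, which reads the same on both strands. Sequences and starts are from RefSeq on GRCm38.p6. Capitals mark the ISRE motif, or the GAS motif for Irf1. The Irgm2 stretch also holds a GAS match, left in small letters. Matches within a run may overlap.
Ifit1 (chr19:34640765-34640833, plus strand): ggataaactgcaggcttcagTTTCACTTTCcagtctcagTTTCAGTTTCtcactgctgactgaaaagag
Ifit3 (chr19:34583353-34583436, plus strand): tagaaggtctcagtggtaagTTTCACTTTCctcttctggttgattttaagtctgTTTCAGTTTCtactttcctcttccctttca
Isg15 (chr4:156200855-156200916, minus strand): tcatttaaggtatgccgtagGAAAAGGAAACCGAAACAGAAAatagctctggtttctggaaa
Oas1a (chr5:120907526-120907565, minus strand): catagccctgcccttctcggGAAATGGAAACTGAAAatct
Gbp3 (chr3:142559979-142560034, plus strand): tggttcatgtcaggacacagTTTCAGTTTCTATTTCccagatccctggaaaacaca
Gbp7 (chr3:142530263-142530312, plus strand): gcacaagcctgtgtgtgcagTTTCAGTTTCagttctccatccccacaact
Irgm2 (chr11:58214893-58214942, plus strand): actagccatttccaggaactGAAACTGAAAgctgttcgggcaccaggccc
Irf1 (chr11:53769904-53769952, plus strand): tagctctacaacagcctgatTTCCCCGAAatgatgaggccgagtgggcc

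All 8 stretches lie upstream of the RefSeq start used. In the gene models used for counting, 6 of the 8 lie outside the gene they are named for, 9 bases of the Gbp3 stretch lie in an exon of Gbp3, and the Irgm2 stretch lies in an intron of Irgm2. Promoters running from 250 bases before to 50 after the start were found for 51 of the 67 members. Of these, 27 (52.9%) held GAAANNGAAA, against 3.99% of the 27025 genes in the same table. TTCNNNGAA was found in 14 of the 51 (27.5%), against 9.55% of all genes. All 5 guanylate-binding protein genes with a promoter held the ISRE motif, as did 8 of 10 Ifi200 genes and 4 of 5 Ifit genes, but only 1 of 8 interferon regulatory factors. These matches describe letters in a window and are not measured binding sites.

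Summed read counts per sample ran from 5449589 to 6789648 in explants, 4596550 to 4881817 in irises, 3523171 to 3871404 in livers, 2718518 to 3573075 in hepatocytes and 3247327 to 3447643 in spheroids. Levels are given as TPM (counts scaled for gene length and for the library's total), which can be compared between genes. The 10 hepatocyte markers summed to between 14005 and 14465 TPM in livers and 5349 to 7480 in explants, yet also to between 1607 and 1893 in naïve irises. The 10 iris and eye markers summed to between 9251 and 9589 TPM in irises and still to between 560.2 and 568 in livers. The source of these reads was not tested. The share of each explant that was iris, solved from the deposited tables, was 82%, 68%, 81%, 72% and 59% for explants 1, 2, 4, 5 and 6. In bulk samples such as these, fewer cells of a type and less RNA per cell cannot be told apart.

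By the median over members, levels were highest in explants, toward which the choice of the set may lean. Single members did not all follow this order, as Ifitm3 below shows. The median over members of the group mean was 17.6 TPM in explants, 8.64 in irises, 6.2 in livers, 5.53 in hepatocytes and 2.04 in spheroids. In explants 17 of 67 members had a mean over 100 TPM and 2 a mean under 1 TPM. In spheroids 24 members had a mean under 1 TPM, 7 of them at 0 in both samples. The same members led everywhere: Ifitm3, which blocks the fusion of viruses with cell membranes, had the highest mean of all members in each of the 5 groups. It averaged 771 ± 82.0 TPM (SD, n = 5) in explants, 736 ± 43.5 in irises (n = 3), 1025 ± 183 in livers (n = 3), 1083 ± 59.9 in hepatocytes (n = 3) and 556 ± 93.4 in spheroids (n = 2). Ifitm2 and Ifi27 were also among the 5 highest in every group. Ifit3 and Gbp2 filled the 5 in explants, Ifit3 and Ifi30 in irises, and Iigp1 was among the 5 highest in livers, hepatocytes and spheroids.

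**Figure D1:**
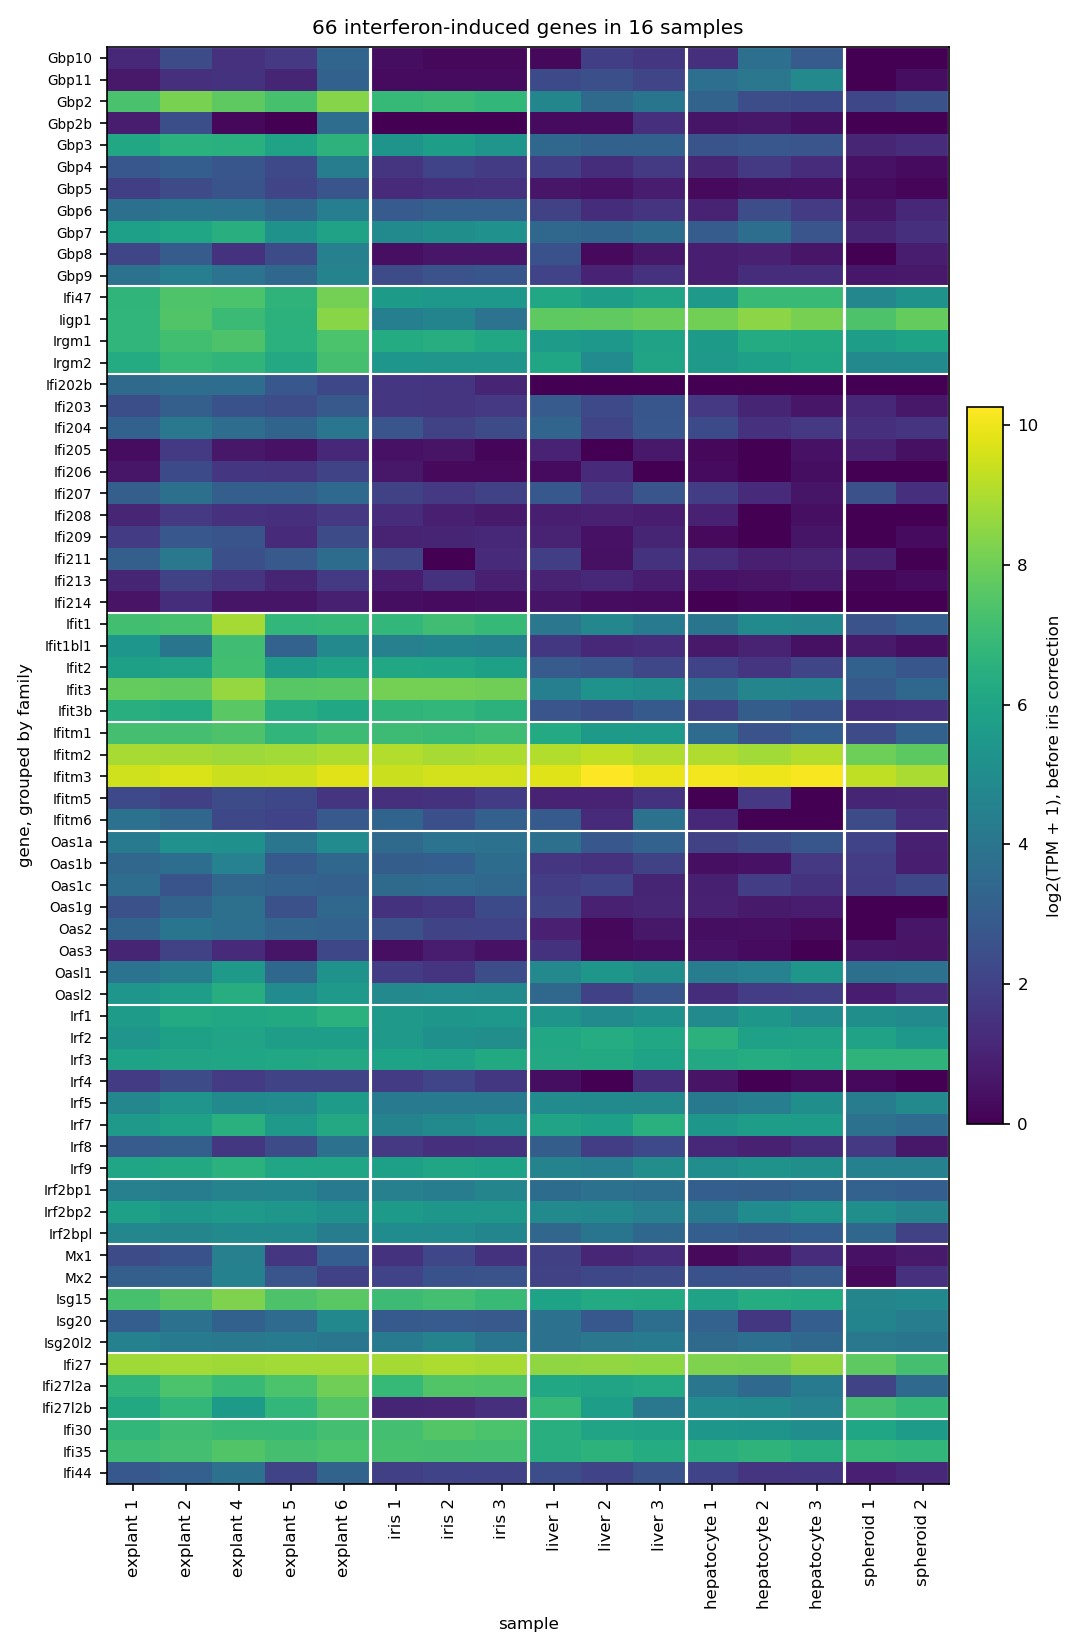
Levels of 66 members (rows, grouped by family) in the 16 samples (columns), as log2(TPM + 1) before correction for the iris share. Most guanylate-binding genes are brightest in explants. Gbp11 is instead brighter in every hepatocyte sample than in any explant, and Gbp10 is brightest in hepatocyte 2. The Ifit genes are bright in explants and irises, and 7 members are at 0 in both spheroid samples.

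To ask what engraftment added to the iris, explants were compared with naïve irises. A gene was called when its Benjamini-Hochberg adjusted p over all genes tested was under 0.05 (edgeR's quasi-likelihood test on counts) and its log2 fold change was over 1 in size. Of 61 members tested, 26 were higher in explants and 0 were lower, where 6.16% of all 16764 genes tested were called higher and 0.316% lower. Without the adjustment, 39 members had p under 0.05, all of them higher, and 55 of 61 had a log2 fold change above 0. The median log2 fold change was 1.08 over the members and 0.01 over all genes. The number of calls rested on the few irises: it was 7, 9 and 9 when iris 1, 2 or 3 was left out, and 15 or 16 without explant 2 or explant 6. With limma-voom in place of edgeR it was 9. Of all genes, 1032 were called higher in the main test and 541 with limma-voom. That number was 554, 604 and 575 without iris 1, 2 or 3, and 822 or 890 without explant 2 or 6. Ifi203, Ifi207, Iigp1 and Irgm2 were called under each of the alternatives tried. All of these were also called lower in irises than in livers in the main test. For Ifi207 and Irgm2 every explant exceeded every liver by TPM as well. The part of liver tissue in their rise was not tested.

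The guanylate-binding proteins are large GTPases that assemble on pathogen vacuoles and bacteria. Of 11 genes 9 were tested and 7 rose. Gbp2, the most abundant, read 156, 296, 210.0, 152 and 331 TPM in the 5 explants and 116, 126 and 111 TPM in the irises. Every explant lay above every iris, and the log2 fold change was 1.08 ± 0.30 (SE, adjusted p = 0.0473). Gbp3 read 68.5, 92.9, 89.5, 59.3 and 97.7 TPM in explants and 38.8, 53.1 and 39.9 in irises (log2 fold change 1.00 ± 0.21, adjusted p = 0.0159). Here too the groups did not overlap, although explant 5 and iris 2 lay close together. Gbp9 was between 10.1 and 22.9 TPM in explants against 4.06 to 5.75 in irises, a rise of 1.79 ± 0.33 on the log2 scale (adjusted p = 0.00812).

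Less abundant members of this family showed larger folds. Gbp8 read 3.48, 6.84, 1.84, 4.11 and 21.2 TPM in explants and 0.349, 0.559 and 0.529 in irises, a log2 fold change of 4.08 ± 1.04 (adjusted p = 0.033). Gbp10 read 1.26, 4.09, 1.76, 2.21 and 9.26 TPM in explants and at most 0.310 in irises (4.17 ± 0.98, adjusted p = 0.0246). Both were highest in explant 6, and no explant overlapped an iris. Without explant 6 the log2 fold changes were 3.08 for Gbp8 and 3.40 for Gbp10, and both passed the test. Both calls were lost with limma-voom or with any single iris left out, and that of Gbp8 without explant 2. Those settings also lowered the calls over all genes. Gbp5 (1.52 ± 0.31) and Gbp6 (1.05 ± 0.25) were the other calls. Gbp4 (1.86 ± 0.58, adjusted p = 0.0674) did not pass the test, and Gbp7 (0.99 ± 0.22, adjusted p = 0.021) stayed under the fold limit. Gbp2b had no count in any iris and 100 counts over the explants, at least 16-fold more relative to depth against a floor of 3 counts over the iris group, and explant 5 was at 0 as well. Explant 6 held 70 of these counts, and without it the bound was 5.96-fold. Gbp11, with 3 counts over the irises and 74 over the explants, was too low to be tested and gave a ratio of 11.8 with an exact 95% counting interval of 3.89 to 58.7. Without explant 6, which held 45 of the 74, the ratio was 5.76 (1.78 to 29.5). Leaving out explants for these low genes was chosen after seeing the data. Of the exonic bases, 46% of Gbp10 and 29% of Gbp6 are shared with an overlapping gene, and reads there were counted for both.

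Immunity-related GTPases act beside the guanylate-binding proteins on the same vacuoles, and 3 of 4 rose. Iigp1 read 108, 178, 127, 94.3 and 345 TPM in explants and 20.8, 23.4 and 14.2 in irises, and Ifi47 read 104, 171, 162, 100.4 and 275 against 46.9, 43.5 and 43.5. Explant 6 was highest for both, and all explants exceeded all irises. The log2 fold changes were 3.27 ± 0.53 (adjusted p = 0.00458) for Iigp1 and 1.99 ± 0.37 (adjusted p = 0.00903) for Ifi47. Irgm2 read 78.3, 117, 105, 71.6 and 150.1 TPM in explants and close to 40 TPM in each iris (39.9 ± 0.542, n = 3), with a log2 fold change of 1.51 ± 0.27. Irgm1, a regulator of the other immunity-related GTPases, was 107, 142, 167, 93.0 and 161 TPM against 78.3, 83.5 and 70.1. Its groups did not overlap and its adjusted p was 0.0244, but its log2 fold change of 0.90 ± 0.21 stayed under the limit.

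**Figure D2:**
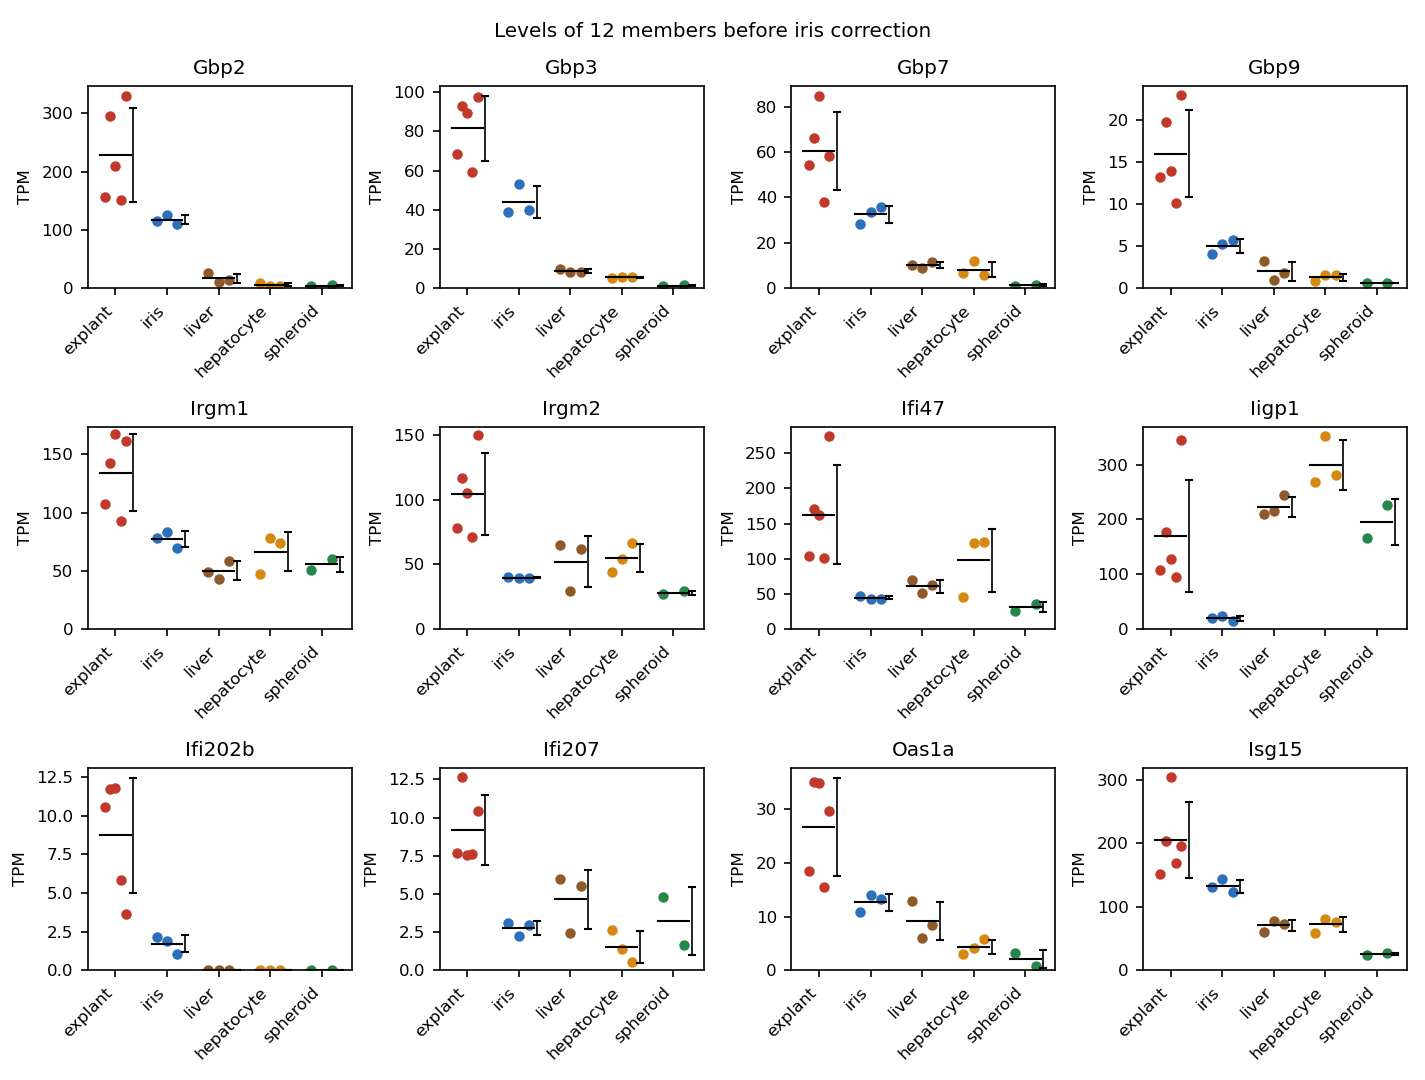
TPM before correction for 12 members in the 5 groups, with one point for each sample, the mean as a line and the SD as a bar beside it. For Gbp2, Gbp3, Gbp7, Gbp9, Irgm1, Irgm2, Ifi202b, Ifi207, Oas1a and Isg15 each of the 5 explants lies above each sample of the other groups, while for Iigp1 the livers (223 ± 18.8 TPM, n = 3) lie above every explant but explant 6.

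The Ifi200 genes encode proteins with pyrin or DNA-binding domains or both, and they lie together on chromosome 1. Of 11 genes 9 were tested, 7 rose and all 9 had a log2 fold change above 0. Ifi207 read 7.66, 12.6, 7.57, 7.63 and 10.4 TPM in explants and 3.10, 2.21 and 2.96 in irises (1.84 ± 0.30, adjusted p = 0.00444). Ifi202b read 10.6, 11.8, 11.8, 5.80 and 3.66 TPM in explants and 2.12, 1.89 and 1.07 in irises (2.41 ± 0.48, adjusted p = 0.0118). It had no count in any liver, hepatocyte or spheroid sample. The explants held at least 18.5-fold more reads relative to depth than the livers, against a floor of 3 counts over the group. Ifi202b could enter the set only through explants, so the direction against livers was fixed in advance. Ifi202b was lowest in explant 6, the explant with the smallest iris share, unlike the GTPases. Ifi203, Ifi204, Ifi206, Ifi209 and Ifi211 were called with log2 fold changes between 1.5 and 2.85. These genes resemble each other, so reads may be assigned between them with error.

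Oligoadenylate synthetases sense double-stranded RNA and make the messenger that activates RNase L, and 4 of 8 rose. Oas1a read 18.5, 35, 34.9, 15.5 and 29.7 TPM in explants against 10.8, 14 and 13.2 in irises (1.18 ± 0.32, adjusted p = 0.0428). Oas2 (1.61 ± 0.27, adjusted p = 0.00543), Oas1g (1.75 ± 0.45, adjusted p = 0.0348) and Oasl1 were the other calls. Oasl1, a relative without synthetase activity, read 14.2, 19.2, 46.4, 10 and 37.2 TPM in explants against 2.53, 1.97 and 4.42 in irises (3.19 ± 0.61, adjusted p = 0.0106). Explants 4 and 6 were highest, and livers were at 27.5, 42.4 and 32.1 TPM, so explant 4 alone exceeded every liver. Oas1a and Oas1g are near copies, and reads between them are uncertain.

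Among the 9 interferon regulatory factors 3 were called and all 9 had a log2 fold change above 0. Irf7, which drives the production of type I interferon, read 45.1, 58.1, 91.4, 45.5 and 71.9 TPM in explants against 22.9, 28.1 and 34.5 in irises (1.23 ± 0.26, adjusted p = 0.0165). Irf5 was called as well (1.14 ± 0.27). Livers had more Irf7 than irises did. Irf1, an early interferon target, read 50.1, 75.3, 70.9, 75.0 and 93.2 TPM in explants and 44.5, 42.6 and 42.7 in irises. All explants were above all irises (adjusted p = 0.0249), but the log2 fold change was 0.86 ± 0.20. Irf9, the partner of Stat2, gave 0.39 ± 0.12 (adjusted p = 0.063), again with no overlap.

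Ifi27l2b was the member with the largest log2 fold change, 6.37 ± 0.70 (adjusted p = 0.000623). It read 74.2, 109, 46.9, 109 and 181 TPM in explants, 1.10, 1.17 and 1.66 in irises, 114, 52.2 and 16.3 in livers and 149 and 113 in spheroids. Explants 1, 2, 4 and 5 lay within the range of the liver and spheroid samples, and explant 6 lay above it. Ifi44 was also called (1.46 ± 0.40, adjusted p = 0.0433).

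**Figure D3:**
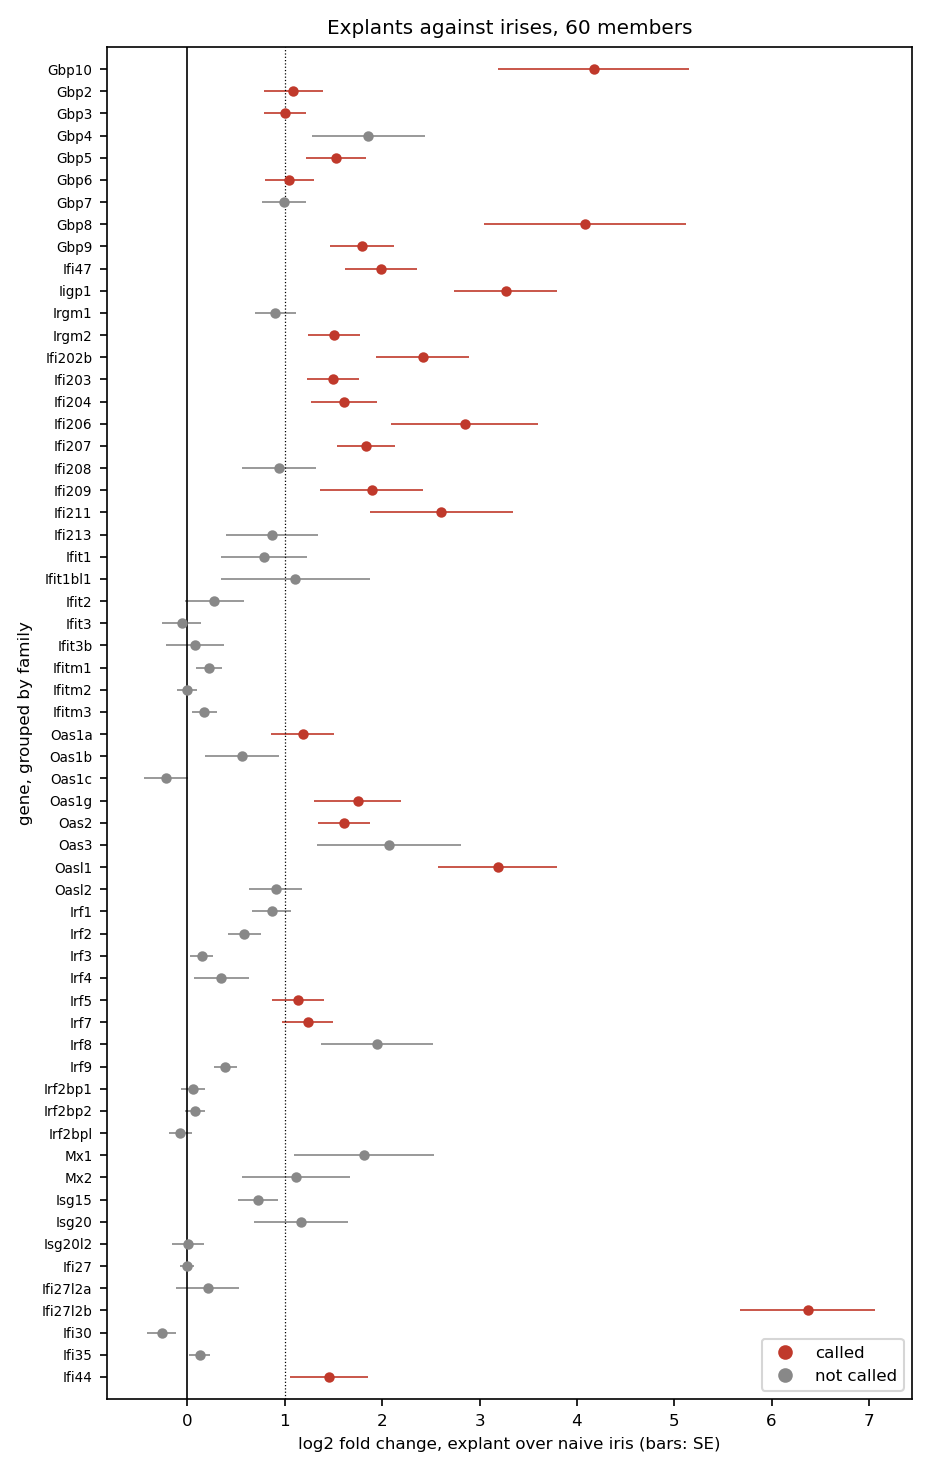
Log2 fold change of explants over naïve irises with its SE for 60 of the 61 members tested, grouped by family. The 25 called members shown (red) come from the guanylate-binding proteins, immunity-related GTPases, Ifi200 genes, oligoadenylate synthetases, regulatory factors, Ifi27l2b and Ifi44, and no member was called lower.

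Several of the classical antiviral members were not called. The 5 Ifit genes, whose products bind viral RNA, had log2 fold changes between -0.06 and 1.11, and none passed. Ifit3 read 226, 215, 396, 192 and 199 TPM in explants and 278, 275 and 263 in irises, so 4 explants were below every iris and explant 4 was above them (-0.06 ± 0.20, adjusted p = 0.876). Ifit1 read 142, 155, 467, 109.8 and 112 TPM in explants and 109, 136 and 116 in irises (0.79 ± 0.45, adjusted p = 0.288). For these genes the groups overlapped, and explant 4 alone stood apart. Mx1, a GTPase against influenza virus that is defective in most laboratory strains, was between 2.11 and 21.1 TPM in explants and 1.81 and 3.52 in irises (1.81 ± 0.72, adjusted p = 0.135).

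Isg15, a ubiquitin-like modifier, read 152, 203, 305, 168 and 196 TPM in explants against 131, 143 and 123 in irises. The groups did not overlap, yet it was not called (0.73 ± 0.21, adjusted p = 0.0521). Ifitm3 (0.17 ± 0.13, adjusted p = 0.419), Ifi27 (adjusted p = 0.98), Ifi27l2a (0.21 ± 0.32, adjusted p = 0.724) and Ifi30 (-0.27 ± 0.15, adjusted p = 0.275) were not called either. Ifi30, a lysosomal enzyme of antigen processing, and Ifi27 were the only members for which every explant lay below every iris by TPM, a pattern shown by 9.8% of all genes.

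An explant held both iris and graft, so its levels were also set beside all other groups. By TPM before correction, 35 of 67 members had every explant above every iris, against 9.95% of all genes. For 20 of 67, every explant exceeded every iris, liver, hepatocyte and spheroid sample, against 1.48% of all genes. They were Gbp2, Gbp3, Gbp4, Gbp5, Gbp6, Gbp7, Gbp9, Ifi202b, Ifi207, Ifi209, Ifi211, Irf1, Irf9, Irgm1, Irgm2, Isg15, Oas1a, Oas1g, Oas2 and Oasl2. Gbp5, Ifi202b and Oas2 were under 1 TPM in every liver, hepatocyte and spheroid sample, and Ifi209 in nearly all. These could pass the limit on mean level only through explants, so their place here was favored in advance. The genes behind the 1.48% had passed the same limit. With any single explant left out the count was between 20 and 22, against 1.73% to 2.37% of all genes. No member had every explant below all other samples, where 0.435% of all genes did. This way of counting was chosen after seeing the data.

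The explants differed among themselves in which families were high. Explant 6 held the highest value for 10 of 11 guanylate-binding proteins and 3 of 4 immunity-related GTPases, whereas explant 4 held it for all 5 Ifit genes and both Mx genes, and explant 2 for 9 of 11 Ifi200 genes. Summed over the 5 Ifit genes, the level was 551, 524, 1340 and 441 TPM in explants 1, 2, 4 and 5 and 465 in explant 6, against 551 to 611 in irises. Summed over the 11 guanylate-binding proteins, it was 319.7, 518, 429, 284 and 605 TPM in explants 1, 2, 4, 5 and 6, against 198 to 231 in irises. By these sums the Ifit genes exceeded the irises in explant 4 alone, and the guanylate-binding proteins did so in all 5 explants. Taken singly, Ifit1 was above every iris in explants 1 and 2 as well, and Ifit1bl1 in explants 1 and 6.

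Relative to the median of the other explants, explant 4 was 3.68-fold higher for Ifit1, 6.55-fold for Ifit1bl1 and 4.66-fold for Mx1, but 0.298-fold for Irf8, a factor of myeloid cells. Explant 6 was 5.60-fold above the median of the others for Gbp8, 2.93-fold for Iigp1 and 2.40-fold for Irf8, but 0.757-fold for Ifit1 and 0.373-fold for Mx2. Outside the set, Usp18, which removes Isg15 from proteins and damps the type I receptor, read 67.7, 81.8, 201, 70.2 and 69.7 TPM, highest in explant 4 like the Ifit genes. Cxcl9, a chemokine induced mainly by interferon gamma, read 27.8, 17.5, 2.43, 17.2 and 116 TPM, highest in explant 6 and lowest in explant 4. These are single explants, so the differences between them have no replicate check.

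Markers of immune cells also differed between explants. The 12 macrophage markers summed to 1570, 2898, 1236, 1963 and 3577 TPM in explants 1, 2, 4, 5 and 6, against 927 to 990.3 in irises and 643 to 1404 in livers. The 9 T and NK cell markers summed to 56.2, 194, 29.4, 36.2 and 253 TPM, against 16.9 to 22.3 in irises and 29.2 to 199 in livers. Explants 2 and 6, with the smallest iris shares, were highest for both lists, and explant 4 was the lowest for both. Of the macrophage markers 5 of 12 were called higher in explants than in irises (Fcgr1, Adgre1, Lyz2, C1qa and C1qb), and of the T and NK markers 1 of 7 tested (Cd4). The 5 neutrophil markers summed to between 0.689 and 12.2 TPM in explants and 1.23 and 2.75 in irises. The part of these cells in the members' levels was not tested.

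**Figure D4:**
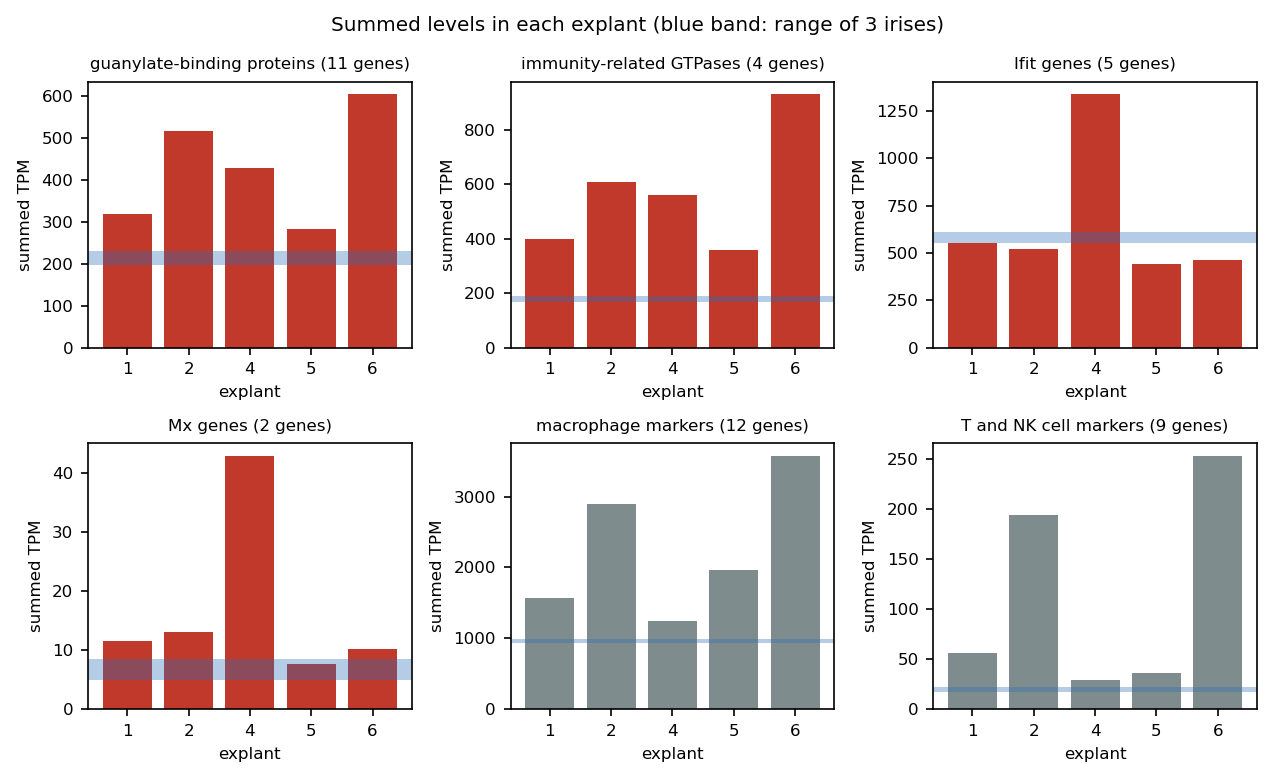
Summed TPM before correction in each explant for 4 member families (red bars) and 2 marker lists (gray bars), with the range of the 3 irises as a blue band. Guanylate-binding proteins and immunity-related GTPases are highest in explant 6, as are the macrophage markers (3577 TPM) and T and NK cell markers (253 TPM), while Ifit and Mx genes are highest in explant 4, where both marker lists are lowest.

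To compare explants with liver after an estimate of their iris part was removed, the iris share was subtracted from each explant: mean iris TPM times the share was taken off, and the rest was divided by the remaining share, with values below 0 set to 0. This takes the host iris of an explant to be like a naïve iris, so that any excess is counted as graft, which was not tested. The differences are on the log2(TPM + 1) scale, which understates low genes, and were tested with limma. Of 67 members, 29 were higher in corrected explants than in livers and 0 were lower, where 12.1% of all 20656 genes were called higher and 3.18% lower. Without liver 2 the count was 18, where 955 of 20643 genes were called higher. The median difference was 1.79 over the members and 0.57 over all genes.

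The guanylate-binding proteins held 9 of these 29 calls. Corrected Gbp2 was 330.4, 675, 605, 241 and 638 TPM in explants against 25.2, 10.6 and 14.7 in livers, a difference of 4.78 ± 0.42 (adjusted p = 0.000554). Corrected Gbp3 was 181, 197, 284, 98.8 and 175 TPM against 9.82, 7.98 and 8.08 (4.22 ± 0.34, adjusted p = 0.000503). All corrected explants stood far above all livers for both. All 4 immunity-related GTPases were called, with differences from 1.20 (Iigp1, adjusted p = 0.0256) to 2.84 (Ifi47, adjusted p = 0.00136). Before correction Iigp1 was instead lower in explants than in livers (-0.55, adjusted p = 0.221), so its direction depended on the subtraction.

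The remaining calls were Ifi202b, Ifi204, Ifi206, Ifi207, Ifi209, Ifi211, Ifit1, Oas1a, Oas1g, Oas2, Oasl2, Irf1, Irf5, Irf9, Isg15 and Ifi27l2b. Gbp5, Ifi202b and Oas2 entered the set only through explants, being under 1 TPM in every liver, hepatocyte and spheroid sample. Ifi206 and Ifi209 were under 1 TPM in nearly all of these. Calls of such members against livers or spheroids were favored in advance. Corrected Isg15 was 241, 353, 1039, 260.5 and 288 TPM against 60.8, 77.3 and 73.3 in livers (2.37 ± 0.45, adjusted p = 0.00924). For Ifit1 the corrected values were 239, 228, 1944, 83.0 and 101 TPM, all above the livers (15.7, 25.7 and 17.1) but spread widely (3.62 ± 0.91, adjusted p = 0.0271). Ifit3 was 16.6, 93.2, 922, 0 and 93.5 TPM after correction and was not called (0.49 ± 1.80, adjusted p = 0.864). For a gene already high in the iris, the subtraction left a small remainder of large numbers, and explants 1 and 4 were set to 0 for Ifi30 and Ifi27l2a. Irf7 was not called against livers (1.09 ± 0.43, adjusted p = 0.121), where it was 63.0, 54.5 and 89.1 TPM.

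Against spheroids that had stayed in vitro, 29 of 67 members were also higher in corrected explants and 0 were lower, where 5.16% of all 20601 genes were called higher and 1.09% lower. The same corrected explants entered both comparisons. The median difference was 2.61 over members and 0.47 over all genes. Gbp2 was 3.63 and 4.80 TPM and Gbp3 1.16 and 1.48 TPM in the spheroids, giving differences of 6.48 ± 0.46 (adjusted p = 0.000556) and 6.27 ± 0.43 (adjusted p = 0.00054). Gbp7 followed with 5.78 ± 0.64, Oasl2 with 5.54 ± 0.77 and Ifit1 with 5.11 ± 1.10. Irf7, at 13.1 and 10.9 TPM in spheroids, was called here (3.49 ± 0.52, adjusted p = 0.00937), as was Ifitm1 (4.55 ± 0.70, adjusted p = 0.0101). With only 2 spheroids, leaving 1 out left a single spheroid, and most calls were then lost, among members and over all genes. The median difference over members was 2.43 without spheroid 1 and 2.46 without spheroid 2. Without explant 2 the count was 18, where 730 of 20467 genes were called higher.

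Naïve irises were compared with livers to place the host tissue. Of 52 members tested, 11 were higher in irises and 19 were lower, where 29.8% of all genes tested were called higher and 22.1% lower. This split depended on the scaling of the libraries: with library size alone it was 19 higher and 9 lower, and the median log2 fold change of all genes moved from 0.11 to 0.80. Under either scaling all 5 Ifit genes were higher in irises. Ifit3 read 20.8, 36.7 and 33.6 TPM in livers against 278, 275 and 263 in irises (log2 fold change 2.27 ± 0.20, adjusted p = 1.11e-05), and Ifit3b gave the largest difference of the family (3.31 ± 0.18).

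Gbp2 (1.92 ± 0.23) and Gbp3 (1.46 ± 0.19) were also higher in irises, as were Oas1b, Oas1c, Oas2 and Oasl2. Livers held more of the immunity-related GTPases Iigp1 (-4.41 ± 0.19), Ifi47 (-1.33 ± 0.13) and Irgm2 (-1.27 ± 0.24), of Oasl1 (-4.39 ± 0.33) and of Irf2, Irf3, Irf5, Irf7 and Irf8. Also lower in irises were Ifi203, Ifi204, Ifi207, Ifi44, Ifi27l2b, Isg20, Ifitm2, Ifitm3 and Gbp11. For Gbp11 the irises held 3 counts and the livers 47, a ratio of 20.2 with a 95% counting interval of 6.5 to 101. The calls that held under every alternative, scaling included, were 17 of 30, among them the 5 Ifit genes, Gbp2, Gbp3, Iigp1, Oasl1 and Irf7.

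Hepatocyte-enriched cells were compared with the livers to show what isolation changed, and few members passed. Of 46 tested, Gbp11 alone was higher, where 0.409% of all genes were called higher, and Ifitm1 and Ifi27l2a were lower, where 2.31% were called lower. Ifitm1 read 77.1, 47.6 and 45.2 TPM in livers and 10.9, 5.08 and 7.40 in hepatocytes (-2.69 ± 0.35, adjusted p = 0.0186). Ifi27l2a read 67.7, 62.3 and 72.6 TPM in livers and 15.1, 10.3 and 17.5 in hepatocytes (-2.09 ± 0.32, adjusted p = 0.031). Neither gene's groups overlapped. The macrophage markers summed to between 184 and 346 TPM in hepatocytes against 643 to 1404 in livers, and their part in these values was not tested. All 3 calls were lost when hepatocyte 2, hepatocyte 3 or liver 2 was left out. Over all genes the main test called 50 higher and 283 lower. That fell to 8 and 7 without hepatocyte 2, 4 and 4 without hepatocyte 3, and 5 and 15 without liver 2.

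Spheroids kept in vitro were compared with hepatocyte-enriched cells, the kind of cell they were formed from. The labels do not say that these preparations made these spheroids. Of 45 members tested, 18 were lower in spheroids and only Ifi27l2b was higher, where 9.11% of all genes were called lower and 8.13% higher. The median log2 fold change was -1.0 over members and 0.01 over all genes. With library size alone the split was 14 lower and 2 higher, and the median of all genes was 0.27. Without spheroid 1, which left a single spheroid, fewer were lower, among members and over all genes, and the median over members was -1.12. Without hepatocyte 3 the number lower was 11, where 852 of 12115 genes were called lower.

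Guanylate-binding proteins made up 5 of the 18, Gbp3, Gbp4, Gbp7, Gbp10 and Gbp11. Gbp7 read 6.86, 12.2 and 5.61 TPM in hepatocytes and 1.08 and 1.58 in spheroids (-2.93 ± 0.48, adjusted p = 0.0047). Gbp10 had 98 counts over the hepatocytes and none in spheroids, at least 23.2-fold lower against a floor of 3 counts over the group. Gbp11 had 183 counts against 1, a ratio of 130 with a 95% counting interval of 23 to 5150. Among the others, Irf7 read 42.4, 52.1 and 49.4 TPM in hepatocytes and 13.1 and 10.9 in spheroids (-2.33 ± 0.20, adjusted p = 0.000451), and Isg15 read 59.3, 80.9 and 76.1 against 24.1 and 26.6 (-1.83 ± 0.30, adjusted p = 0.00512). Both fell without overlap.

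The remaining lower members were Ifit1, Ifit3, Ifit3b, Ifitm2, Ifitm3, Ifi27, Ifi44, Ifi47, Irgm2, Mx2 and Oasl1. Ifi27l2b read 29.5, 28.4 and 22.2 TPM in hepatocytes and 149 and 113 in spheroids (1.95 ± 0.21, adjusted p = 0.00104). Iigp1, at 165 and 226 TPM in spheroids against 268, 352 and 280.3 in hepatocytes, stayed under the fold limit (-0.93 ± 0.25, adjusted p = 0.0317). The macrophage markers were higher in spheroids (678 to 865 TPM summed) than in hepatocytes, opposite to the members.

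**Figure D5:**
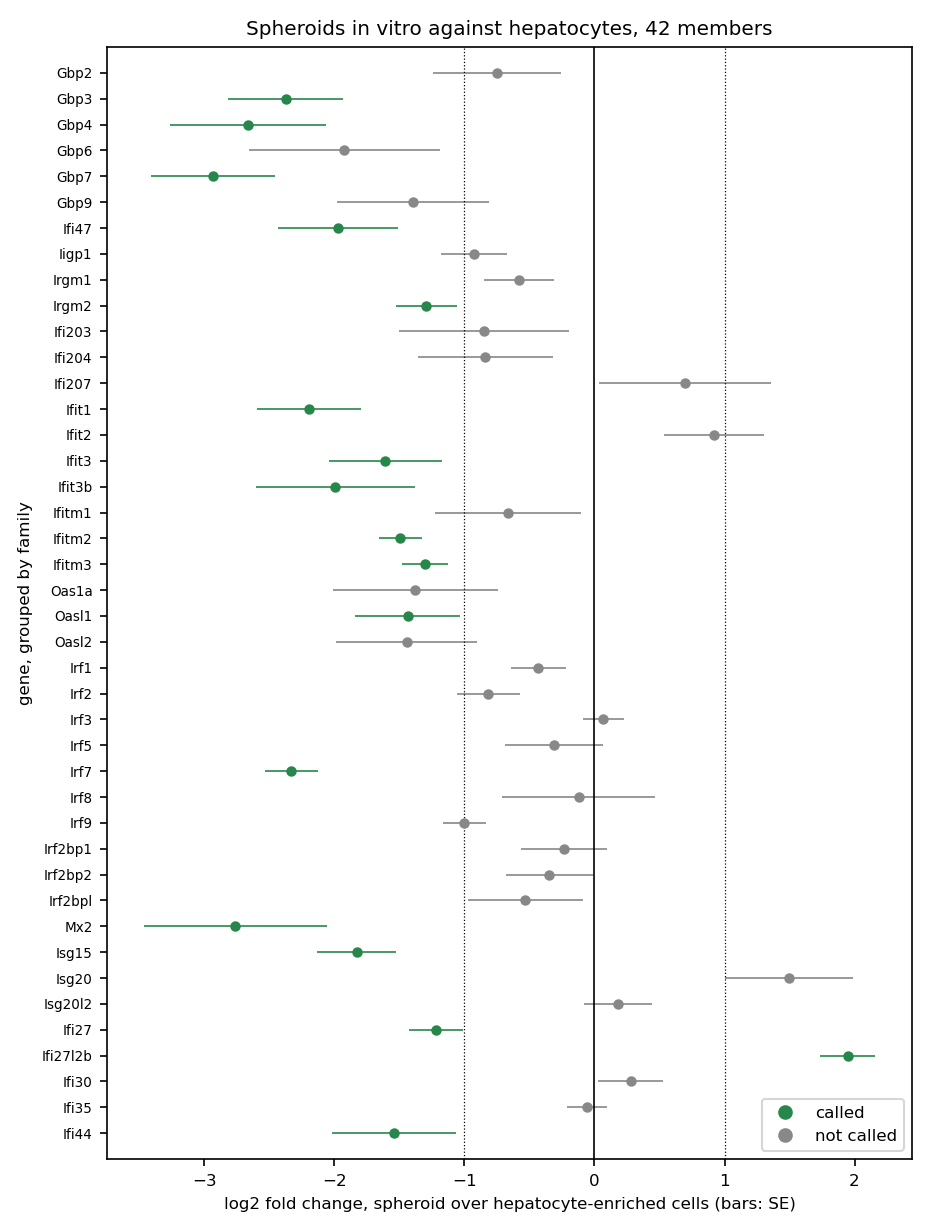
Log2 fold change of spheroids over hepatocytes with its SE for 42 of the 45 members tested. Gbp10 and Gbp11, which had 0 and 1 counts in spheroids, are among those not drawn. Called members are in green and the others in gray, most lie below 0, and Ifi27l2b (1.95) is the only one called higher.

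The rest of the pathway was read from lists of genes outside the set, to be set beside the 6.16% of all genes called higher and 0.316% called lower in explants against irises. Of 21 interferon genes, 18 were at 0 in every explant, among them Ifnb1, and none was high enough to be tested against irises. Ifng was seen in explant 2 (1.27 TPM) and explant 6 (3.17 TPM) and in hepatocyte 2 (0.658 TPM), and was at 0 in the other samples. None of the 6 receptor genes was called between explants and irises. Ifnar1, of the type I receptor, gave 0.22 ± 0.09 (adjusted p = 0.152), and Ifngr1, of the type II receptor, gave 0.35 ± 0.12 (adjusted p = 0.0829).

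Among the signal transducers, Stat2 read 44.8, 56.0, 85.2, 42.4 and 50.9 TPM in explants, highest in explant 4 like the Ifit genes, and was not called against irises (0.69 ± 0.23, adjusted p = 0.0828). In spheroids Ifngr1 was higher than in hepatocytes (1.96 ± 0.26, adjusted p = 0.00208).

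Among 13 nucleic acid sensors and adaptors tested, Ifih1 (1.05 ± 0.21) and Zbp1 (3.66 ± 0.80) were higher in explants than in irises, and of 6 inhibitors Socs3 was (1.20 ± 0.34). Usp18 was not called (0.90 ± 0.35, adjusted p = 0.129). Of 49 further interferon-induced genes 15 were higher and 0 lower, with a median log2 fold change of 0.89, against 0.01 over all genes. They were Sp100, Mndal, Cxcl9, Cxcl10, Nlrc5, Tgtp1, Tgtp2, Igtp, Lgals9, Slfn2, Slfn1, Ly6e, Apol9a, Ciita and Tap1. Cxcl9 and Cxcl10 attract T cells, and Nlrc5, Ciita and Tap1 act in antigen presentation. In spheroids against hepatocytes 12 of 39 such genes tested were lower and 1, Samd9l, was higher, where 9.11% of all genes were lower and 8.13% higher.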

How the data were processed

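The authors sequenced Smart-seq3 libraries, aligned reads to mm10 with TopHat2, removed duplicate reads (UMI-tool dedup and SAMtools are listed) and counted genes with featureCounts (1.4.6-p5), without strand and without multimapping reads, with overlapping genes each credited. The deposited counts are sums over 3 technical libraries. The deposited TPM values were derived from them. The deposited iris-corrected table lists genes with a mean over 1 TPM. It holds no irises, and 10 other genes whose symbols fit the pattern were not in it. Ifi202b, at 0 in livers, hepatocytes and spheroids, could enter only through the explants. So could Gbp5, Ifi208, Ifi214 and Oas2, which were under 1 TPM in every such sample. Gbp2b, Ifi205, Ifi206, Ifi209, Irf4 and Oas3 were under 1 TPM in nearly all of them. For all these members, explant levels above livers, hepatocytes or spheroids were favored in advance. Shares over all genes in the count tests were not limited to this table. The deposited corrected column of explant 4 followed another formula (the iris mean minus the share was subtracted), so all 5 explants were corrected here by the formula of the methods.

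Counts were tested with edgeR 4.0.16 (R 4.3.3, TMM scaling, quasi-likelihood), in place of limma used by the study, with DESeq2 1.42.0 as an alternative. Corrected values were tested with limma 3.58.1 on log2(TPM + 1). Calls needed an adjusted p under 0.05 and a log2 fold change over 1. The tests were also run on simulated data with a fixed spread and with changes placed only in well-expressed genes. This does not check them for low or widely spread genes. Counting intervals and floors (3 counts) cover counting error only. Same-coordinate gene models in GENCODE M21 were found for 52 of 67 members. Named in full were called members, the 5 highest in each group and a fixed list. Members and lists were chosen with earlier results of these data known. Some results are not reported here.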

Additional observations from a re-analysis of the deposited data

Results flagged for a closer look

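In 10 of 67 members (14.9%) 1 explant stood further from its nearest neighbor than Dixon's 95% critical value for 5 samples (0.71) allows, where chance alone marks about 1 in 20 groups. In the same explants 9.63% of the 20560 genes with varying TPM were marked. Explant 6 was the high sample for Gbp11 (7.99 TPM), Gbp4 (19.3 TPM) and Gbp8 (21.2 TPM). Explant 4 was the high sample for Ifit1 (467 TPM), Ifit1bl1 (139 TPM), Ifit2 (139 TPM), Ifit3 (396 TPM), Ifit3b (199.6 TPM), Mx1 (21.1 TPM) and Mx2 (21.9 TPM).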

How the results depend on the processing

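The counts of called members changed with several alternatives, as did the counts over all genes, and the cause was not tested. Members higher in explants than in irises, 26 in all, numbered 9 with limma-voom, 16 with technical library a alone and 7 to 29 with a sample left out. Between irises and livers, library size alone gave 19 higher and 9 lower, and leaving out a sample gave 9 to 11 and 17 to 20. In hepatocytes against livers, members higher numbered 0 with limma-voom, 2 without a filter on low counts, 0 with library a alone and 0 to 2 with a sample left out. Members lower there numbered 5 with DESeq2, 0 with limma-voom, 6 without a filter and 0 to 3 with a sample left out. In spheroids against hepatocytes, members higher numbered 2 with DESeq2, limma-voom, library size alone or no filter and 1 with a sample left out, and members lower 8 to 19. For corrected explants a sample left out gave 18 to 31 against livers and 4 to 31 against spheroids. TPM before correction gave 49 higher and 1 lower against spheroids, where 6433 of 20609 genes were called higher and 1202 lower. It also reversed Iigp1 against livers (-0.55) and Ifi27l2b against spheroids (-0.45).

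Same-numbered samples did not deviate together (r between -0.13 and 0.133). With so few samples in a group, this cannot show whether replicate numbers pair the samples. With a replicate block, 17 members were higher in explants than in irises, 2 higher and 4 lower in hepatocytes than in livers, and 0 members and 0 of all genes were higher in corrected explants against livers or spheroids.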
